A study of Mus musculus with 12 samples.

Results

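The mRNAs of 10 genes of iron transport, iron storage and hepcidin control were followed in cultured mouse hepatocytes with and without Mettl3, the catalytic subunit of the enzyme that writes m6A onto mRNA. The genes are the plasma iron carrier transferrin (Trf), the transferrin receptors Tfrc and Tfr2, the ferritin heavy and light chains Fth1 and Ftl1, the iron exporter ferroportin (Slc40a1), the hormone hepcidin (Hamp), its upstream sensor Hfe, and the iron regulatory proteins Aco1 (IRP1) and Ireb2 (IRP2). They were chosen by name from the 48440 genes of the count table, where 11 entries carry these names; the surplus entry, a further Fth1, had 0 reads in every library, and all 10 genes passed the filter on low counts. Primary hepatocytes came from C57BL/6J mice that were either wild type (Control) or Mettl3 cKO, in which the Albumin enhancer and promoter drive a Cre recombinase that deletes the floxed Mettl3 gene in the liver. After 16 h of culture all cells received 5 µM actinomycin D, a blocker of transcription, for 0, 2 or 6 h. Poly(A) RNA was sequenced from 2 libraries in each of the 6 groups. The sources do not say whether the 2 libraries came from separate mice, so p-values measure the spread between libraries, and the age of these mice is not given.

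Hepatocytes take up transferrin-bound iron, store it in ferritin shells and release it through ferroportin, and they secrete hepcidin, which causes ferroportin on its target cells to be degraded. Inside the cell, IRP1 and IRP2 bind a hairpin called the iron-responsive element (IRE) when iron is scarce. Bound in a 5′ UTR, as in ferritin and ferroportin mRNA, they block translation; bound in the 3′ UTR of Tfrc mRNA, they protect it from decay. Hfe, Tfr2 and bone morphogenetic protein (BMP) receptors raise hepcidin transcription when iron is plentiful.

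The matches to the IRE found in these genes are shown because the IRPs act through them, and are printed as the transcript strand, with the bulged C and the loop in capitals. The search asked for a C, 5 bases, CAGTG and a base other than G, and 5 further bases that pair with the first 5 (G with T allowed). Each stretch is 27 bases long and comes from Gencode M21 transcripts (mm10).
Fth1 5′ UTR, chr19:9982733-9982759, plus strand: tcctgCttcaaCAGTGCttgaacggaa
Ftl1 5′ UTR, chr7:45459780-45459806, minus strand: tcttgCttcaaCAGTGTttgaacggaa
Slc40a1 5′ UTR, chr1:45925466-45925492, minus strand: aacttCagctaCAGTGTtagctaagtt
Tfrc 3′ UTR, chr16:32631220-32631246, plus strand: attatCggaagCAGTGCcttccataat
Tfrc 3′ UTR, chr16:32631599-32631625, plus strand: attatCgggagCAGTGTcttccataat
Tfrc 3′ UTR, chr16:32631664-32631690, plus strand: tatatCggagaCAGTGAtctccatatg
Tfrc 3′ UTR, chr16:32631711-32631737, plus strand: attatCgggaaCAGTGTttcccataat
Of the 10 genes, 4 held a match, 3 in the 5′ UTR and 1 in the 3′ UTR. Among the 13291 protein-coding genes tested, 98 (0.737%) held a match in a UTR. A match describes the letters only. The motif GGAC, which is part of the m6A consensus, was counted on the transcript strand of the longest coding transcript. It occurred 9.44 times per kb in Tfr2 and 6.20 times per kb in Ftl1, against a median of 4.14 per kb over the 13291 genes, and 2.01, 2.05 and 2.08 times per kb in Fth1, Tfrc and Ireb2.

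Before actinomycin D the levels of the 10 mRNAs spanned a wide range. Levels are given as CPM, the reads of a gene scaled to a common library total, and only in this paragraph also per kb of exon, so that genes can be compared. In Control cells at 0 h Fth1 stood at 1215 CPM per kb and Ftl1 at 692 CPM per kb. Aco1 (53.5 CPM per kb), Tfrc (33.7), Trf (27.5), Tfr2 (19.1), Ireb2 (14.5) and Slc40a1 (9.68) followed in that order, and the ranges of neighbours in this order did not overlap between the 2 libraries of each. Hamp (6.02 to 6.62 CPM per kb) and Hfe (5.48 to 6.08) came last, and their ranges overlapped. Hamp was thus a rare mRNA in these cultured cells, with 20 to 56 reads in a library, whereas Fth1 had 70391 to 173957. Hamp2, the second hepcidin gene of mouse, had 0 or 1 read in each library.

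**Figure D1:**
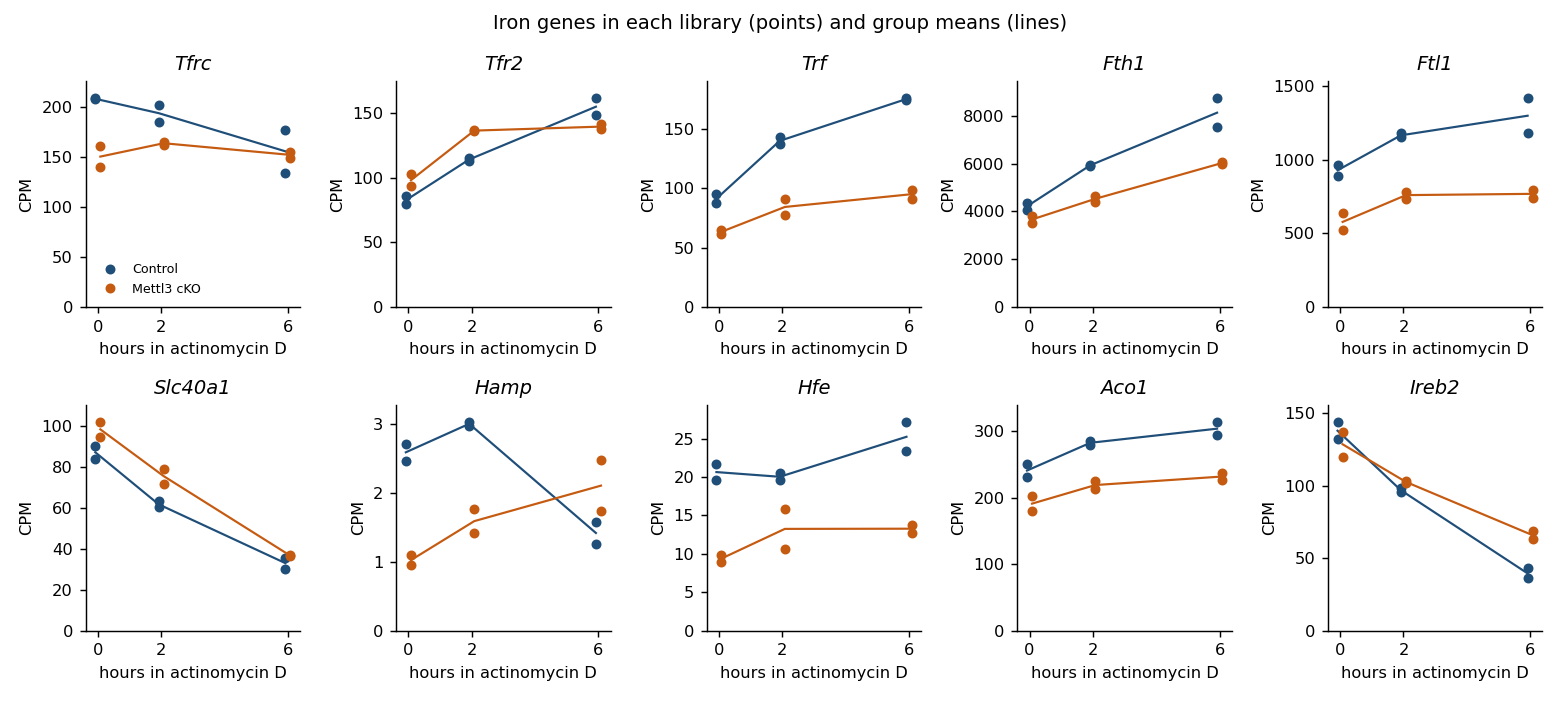
Level of each of the 10 iron genes in CPM (vertical axis, from 0) against hours in actinomycin D (horizontal axis) in Control (blue) and Mettl3 cKO (orange); points are libraries (2 in each group) and lines join group means. Trf, Fth1, Ftl1, Hfe and Aco1 lay lower in Mettl3 cKO at each time, Slc40a1 and Ireb2 fell with time in both genotypes, and Hamp crossed between 2 and 6 h.

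Checks on the libraries bear on what follows. Totals ran from 16952084 to 20914516 reads. Mettl3 itself stood at 28.5 and 33.4 CPM in Control and 22.6 and 23.2 CPM in Mettl3 cKO at 0 h; at 2 h the libraries overlapped (24.2 and 25.5 against 24.0 and 25.8 CPM), and at 6 h those labelled Mettl3 cKO were higher (19.4 and 24.2 against 13.7 and 15.0 CPM). These counts pool deleted and remaining exons, so they do not check the deletion, and genotype names at 2 and 6 h are those of the labels. The 6 h libraries stood apart. Xist, made by the inactive X, had 16565 to 20246 reads in Control 6 h and at most 6 in the other 10 libraries, the Y-linked Ddx3y had 0 or 1 read there and at least 2440 elsewhere, and Eno1b had 2 to 4 reads in Mettl3 cKO 6 h and at least 844 elsewhere. Results that use 6 h therefore compare libraries that differ in more than genotype and time, and values from the 0 and 2 h libraries are given beside the slopes. Hepatocyte markers (10 of 10 detected) summed to 53268 to 54747 CPM in Control 0 h and 49742 to 52936 CPM in Mettl3 cKO 0 h. Albumin made up most of this sum, and the other markers lay on both sides, with Ttr at 786 and 722 CPM in Control against 393 and 349 CPM, and Apoa1 at 2102 and 2011 against 5200 and 4673 CPM. The 12 macrophage markers summed to 213 to 215 CPM in Control 0 h and 471 to 510 CPM in Mettl3 cKO 0 h. Endothelial markers (10 detected) summed to 308 to 326 and 388 to 420 CPM, and stellate cell markers (10 detected) to 223 to 228 and 338 to 357 CPM. At 6 h the sums in Control and Mettl3 cKO were 97.5 to 117 and 310 to 337 CPM for macrophages, 37.2 to 43.1 and 90.2 to 98.6 CPM for endothelium, and 170 to 173 and 383 to 407 CPM for stellate cells. The 6 bile duct markers summed to 184 to 196 and 66.2 to 73.3 CPM at 0 h. Spp1 (105.9 and 113.9 against 12.8 and 11.6 CPM) and Krt19 (26.7 and 28.3 against 6.93 and 5.02 CPM) lay lower in Mettl3 cKO, whereas Epcam was at 10.7 and 11.8 CPM against at least 13.7 CPM and the libraries overlapped for Sox9. The part of these cell types in the differences of the iron genes was not tested.

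The first question was how the iron genes differ between genotypes before transcription is blocked. At 0 h, 7 of the 10 mRNAs were lower in Mettl3 cKO (Tfrc, Trf, Fth1, Ftl1, Hamp, Hfe and Aco1) and 2 were higher (Tfr2 and Slc40a1). Over all 14488 genes tested, 22.5% were lower and 31.9% higher by the same rule (edgeR, adjusted p under 0.05). The median log2 difference of the 10 genes was -0.40 against 0.07 over all genes. In bulk RNA, less mRNA per cell and fewer cells that make it cannot be told apart.

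At 2 h the counts were again 7 lower and 2 higher, against 21.3% lower and 37.8% higher among all genes. The median log2 difference was -0.38, against 0.15 over all genes. With TMM library sizes, a scaling that centres the bulk of the genes, the all-gene median went from 0.15 to 0.03. The share of calls that were higher went from 63.9% to 53.1%. The members again had 7 lower and 2 higher, against 4139 and 4680 of all 14488 genes. At 6 h, 6 members were lower and 1 was higher, against 19.8% and 46.4% of all genes. Their median log2 difference was -0.27, against 0.32 over all genes. Here TMM moved the all-gene median from 0.32 to 0.03 and the share of higher calls from 70.1% to 51.7%. TMM called 7 members lower and 1 higher, against 4797 and 5135 of all 14488 genes.

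**Figure D2:**
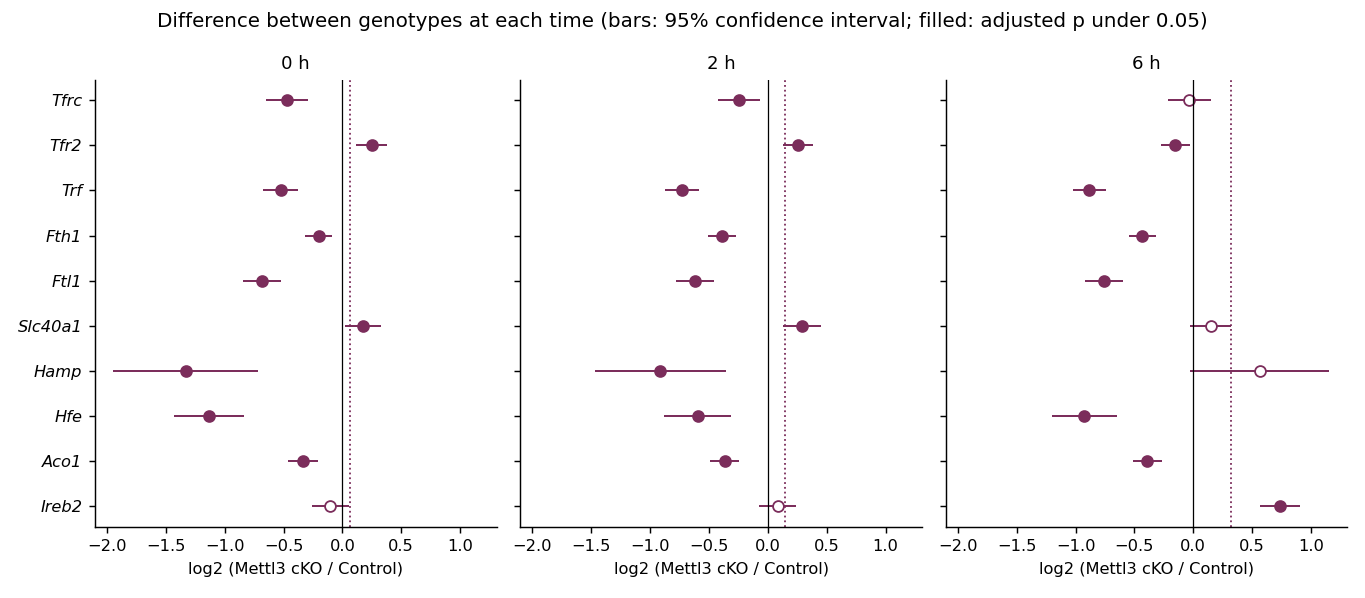
Log2 ratio of Mettl3 cKO to Control (horizontal axis) for each iron gene (rows) at 0, 2 and 6 h; points are edgeR estimates, bars 95% confidence intervals, filled points have an adjusted p under 0.05, and dotted lines mark the median of all 14488 genes. Trf, Fth1, Ftl1, Hfe and Aco1 lie left of 0 at all 3 times, and Ireb2 lies at -0.10, 0.08 and 0.74.

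Among the genes of uptake, transferrin was lower in Mettl3 cKO throughout. Trf stood at 94.9 and 87.4 CPM in Control 0 h and at 65.0 and 61.7 CPM in Mettl3 cKO 0 h. It rose in both genotypes but reached 175.5 and 174.5 CPM in Control 6 h against 91.2 and 98.7 CPM in Mettl3 cKO 6 h, so the groups did not overlap at these times. The log2 difference was -0.52 at 0 h (adjusted p = 2.33e-06, SE 0.0727), -0.73 at 2 h (adjusted p = 5.42e-09, SE 0.0702) and -0.88 at 6 h (adjusted p = 9.73e-11, SE 0.0689). Of the exon bases of Trf, 63.5% are shared with Gm20425, a same-strand gene with 0 reads in every library, so reads that fall in both may not be in these counts.

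Tfrc, the receptor that most dividing cells use to take up transferrin, was lower in Mettl3 cKO at 0 h, with 208.3 and 209.0 CPM in Control against 140.3 and 161.2 CPM. The difference was 1.38-fold (log2 -0.47, SE 0.0869, adjusted p = 8.98e-05). It was smaller at 2 h, with 202.7 and 185.9 CPM in Control against 165.6 and 162.6 CPM (log2 -0.24, SE 0.0869, adjusted p = 0.0196). The call at 2 h did not hold without Control 2 h replicate 1 (log2 -0.18, adjusted p = 0.178), Mettl3 cKO 2 h replicate 1 (log2 -0.26, adjusted p = 0.0582) or replicate 2 (log2 -0.23, adjusted p = 0.0879); over all left-out libraries the adjusted p ran from 5.45e-04 to 0.178. At 6 h the libraries overlapped, with 177.8 and 134.4 CPM in Control and 149.8 and 155.1 CPM in Mettl3 cKO (log2 -0.03, adjusted p = 0.744). That value depended on scale and library: it was -0.32 with TMM (adjusted p = 7.66e-04) and ran from -0.22 to 0.18 as each library was left out. The Control libraries set both ends, with -0.22 without Control 6 h replicate 2 and 0.18 without Control 6 h replicate 1. The 3 genes whose log2(CPM + 1) followed Tfrc most closely over the 12 libraries, among 8623 genes, were Naa50 (Pearson r 0.973), Eif1 (0.947) and Ppp2r1b (0.936), a description over libraries that share their grouping.

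Tfr2, the receptor that senses iron-loaded transferrin on hepatocytes, ran the other way. It stood at 85.8 and 79.6 CPM in Control 0 h and at 93.6 and 102.8 CPM in Mettl3 cKO 0 h, with no overlap. The log2 difference was 0.25 at 0 h (adjusted p = 0.00229, SE 0.0637) and 0.26 at 2 h (adjusted p = 0.00103, SE 0.0617), and -0.15 at 6 h (adjusted p = 0.0324, SE 0.0605). Without Mettl3 cKO 0 h replicate 2 the 0 h value was 0.18 (adjusted p = 0.0537, range 7.25e-04 to 0.0537). With DESeq2 size factors the 2 h value fell to 0.13 (adjusted p = 0.0542, range over the other settings 3.61e-04 to 0.0865). At 6 h, the call was lost without Control 6 h replicate 1 (log2 -0.09, adjusted p = 0.265), Mettl3 cKO 6 h replicate 1 (log2 -0.13, adjusted p = 0.160) or replicate 2 (log2 -0.17, adjusted p = 0.0749), and over the other settings the 6 h value ran from -0.50 to -0.15.

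Both ferritin chains were lower in Mettl3 cKO. Fth1, the chain with the ferroxidase site that oxidizes iron for storage, stood at 4361 and 4066 CPM in Control 0 h and at 3826 and 3501 CPM in Mettl3 cKO 0 h. By 6 h it had reached 7531 and 8725 CPM in Control and 6084 and 5967 CPM in Mettl3 cKO. The log2 difference was small at 0 h (-0.20, SE 0.0564, adjusted p = 0.00451) and was -0.39 at 2 h (adjusted p = 3.02e-06, SE 0.0565) and -0.43 at 6 h (adjusted p = 4.86e-07, SE 0.0564). At 0 h the call was lost without Control 0 h replicate 1 (log2 -0.15, adjusted p = 0.0704) or Mettl3 cKO 0 h replicate 2 (log2 -0.14, adjusted p = 0.0754), in a range of 1.11e-04 to 0.0754.

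Ftl1, the chain that promotes formation of the iron core, differed more than Fth1 at 0 h. It stood at 964.6 and 891.2 CPM in Control 0 h against 519.7 and 635.9 CPM in Mettl3 cKO 0 h, and at 1415 and 1181 CPM against 742.2 and 794.2 CPM at 6 h. The groups were apart at each time. The log2 difference was -0.68 at 0 h (adjusted p = 1.48e-07, SE 0.0782), -0.62 at 2 h (adjusted p = 4.01e-07, SE 0.0778) and -0.76 at 6 h (adjusted p = 1.09e-08, SE 0.0778), and the size of the Ftl1 difference against that of Fth1 was not tested. Ferritin genes have near-identical processed copies, and reads that mapped to more than 1 place were dropped, so absolute ferritin levels are uncertain. The copies Ftl2-ps and Fth-ps2 had 51 and 8 reads over all libraries. Of the Ftl1 exon bases, 26.5% are shared with the antisense gene Gm10252, whose reads cannot be told apart without strand. Gm22133, a same-strand gene with 0 reads in every library, shares 8.13% of them, so reads that fall in both may not be counted.

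Ferroportin, the only known cellular iron exporter, was slightly higher in Mettl3 cKO at 0 and 2 h. Slc40a1 stood at 83.9 and 90.3 CPM in Control 0 h against 94.8 and 101.8 CPM in Mettl3 cKO 0 h, and at 63.2 and 60.3 CPM against 79.2 and 71.8 CPM at 2 h. The log2 difference was 0.17 at 0 h (adjusted p = 0.0497, SE 0.0734), 0.29 at 2 h (adjusted p = 0.00233, SE 0.0762) and 0.15 at 6 h (adjusted p = 0.126). The 0 h call was at the threshold: with TMM the value was 0.13 (adjusted p = 0.107), the adjusted p ran from 0.0286 to 0.352 over the other settings, and only 4 of the 12 fits with a library left out called it. The 2 h call was lost without Mettl3 cKO 2 h replicate 1 (log2 0.22). It was also lost with DESeq2 size factors (log2 0.17, adjusted p = 0.0507, range over the other settings 5.92e-04 to 0.0940). At 6 h the direction turned with TMM (-0.14, adjusted p = 0.123). DESeq2 size factors called Slc40a1 lower at 6 h (-0.20, adjusted p = 0.0294). With a library left out, the 6 h value ran from 0.04 to 0.27. Macrophages of the liver also express ferroportin. Their 12 markers were all detected and summed to 254 to 278 CPM in Control 2 h and 540 to 556 CPM in Mettl3 cKO 2 h, and their part in the Slc40a1 difference was not tested.

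Hepcidin mRNA was lower in Mettl3 cKO before and early in the treatment. Hamp had 46 and 43 reads (2.71 and 2.47 CPM) in Control 0 h against 20 and 22 reads (0.96 and 1.09 CPM) in Mettl3 cKO 0 h. At 2 h it had 56 and 54 reads (2.98 and 3.03 CPM) against 26 and 33 (1.42 and 1.77 CPM). The 0 h level was 2.52-fold lower (log2 -1.33, SE 0.296, 95% interval -1.95 to -0.72, adjusted p = 6.1e-04) and the 2 h level 1.88-fold lower (log2 -0.91, SE 0.269, adjusted p = 0.00567).
The 0 h call held in all 12 fits with a library left out, whereas the 2 h call was lost without Mettl3 cKO 2 h replicate 1 (log2 -0.76, adjusted p = 0.0628, range 0.00489 to 0.0628). At 6 h the order was the opposite, with 33 and 25 reads (1.58 and 1.25 CPM) in Control and 33 and 47 reads (1.74 and 2.47 CPM) in Mettl3 cKO. That difference did not pass the test (log2 0.57, 95% interval -0.02 to 1.15, adjusted p = 0.0849), but it did once Mettl3 cKO 6 h replicate 1 was left out (log2 0.80, adjusted p = 0.0420, range 0.0420 to 0.505). The genes closest to Hamp over the 12 libraries were C1galt1c1 (Pearson r 0.917), Smo (0.915) and Chml (0.907), of 8623 compared.

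Hfe, the membrane protein whose loss causes hemochromatosis in humans, was lower in Mettl3 cKO at each time. It stood at 21.7 and 19.6 CPM in Control 0 h and at 8.89 and 9.90 CPM in Mettl3 cKO 0 h, a 2.20-fold difference (log2 -1.14, SE 0.143, adjusted p = 6.3e-07). At 2 h the Mettl3 cKO libraries were uneven, at 15.8 and 10.7 CPM against 20.5 and 19.6 CPM in Control (log2 -0.60, SE 0.138, adjusted p = 7.37e-04). At 6 h they were at 13.8 and 12.7 CPM against 27.1 and 23.3 CPM (log2 -0.93, SE 0.133, adjusted p = 1.93e-06). Each call held with any library left out, although the 2 h value then ran from -0.91 to -0.34.

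The regulators differed from each other. Aco1, the cytosolic aconitase that becomes IRP1 when it loses its iron-sulfur cluster, stood at 250.1 and 231.2 CPM in Control 0 h and at 179.6 and 202.3 CPM in Mettl3 cKO 0 h. Its log2 difference at the 3 times was -0.33 (adjusted p = 7.72e-05, SE 0.061), -0.37 (adjusted p = 1.69e-05, SE 0.0606) and -0.39 (adjusted p = 5.36e-06, SE 0.0603), and these calls held under each alternative tried.
Ireb2, which encodes the IRP that is degraded when iron is plentiful, overlapped between genotypes at 0 h, with 132.0 and 143.8 CPM in Control and 120.1 and 137.0 CPM in Mettl3 cKO (log2 -0.10, 95% interval -0.26 to 0.05, adjusted p = 0.258). With DESeq2 size factors the 0 h value was -0.18 and was called (adjusted p = 0.0323), in 1 of the 6 other settings. At 2 h it stood at 98.2 and 95.6 against 103.6 and 101.6 CPM (log2 0.08, 95% interval -0.08 to 0.24, adjusted p = 0.366), a direction that turned with TMM (-0.03). At 6 h Control had fallen to 42.9 and 36.2 CPM and Mettl3 cKO to 63.1 and 68.7 CPM, a 1.66-fold difference (log2 0.74, SE 0.0827, adjusted p = 4.69e-08). Over the other settings this log2 difference ran from 0.39 to 0.74, with the lowest value under DESeq2 size factors, and it was called in each.

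The second question was how the mRNAs moved once transcription was blocked. A CPM is a share of the mRNA left, so a gene that decays more slowly than the bulk rises. In Control, 5 members rose and 2 fell from 0 to 2 h, against 12.9% and 36.3% of all genes. In Mettl3 cKO, 6 rose and 2 fell, against 12% and 29.2%. The members' median log2 change was 0.22 in Control and 0.35 in Mettl3 cKO, and that of all genes -0.15 and -0.08. With TMM the all-gene median went from -0.15 to 0.02 in Control and from -0.08 to 0.01 in Mettl3 cKO. The share of calls that were higher went from 26.2% to 48.3% in Control and from 29.2% to 47.4% in Mettl3 cKO.

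From 2 to 6 h, 4 members rose and 4 fell in Control, against 9.83% and 48.4% of all genes, and 1 rose and 2 fell in Mettl3 cKO, against 8.24% and 33%. The members' medians were 0.13 and 0.02 and those of all genes -0.39 and -0.17. TMM moved the all-gene median from -0.39 to -0.05 in Control and from -0.17 to -0.0085 in Mettl3 cKO. The share of higher calls went from 16.9% to 46.1% and from 20.01% to 48.6%. With TMM, 6 members rose and 3 fell in Control, against 3949 and 4622 of all 14488 genes. In Mettl3 cKO 5 rose and 2 fell, against 2966 and 3137.

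**Figure D3:**
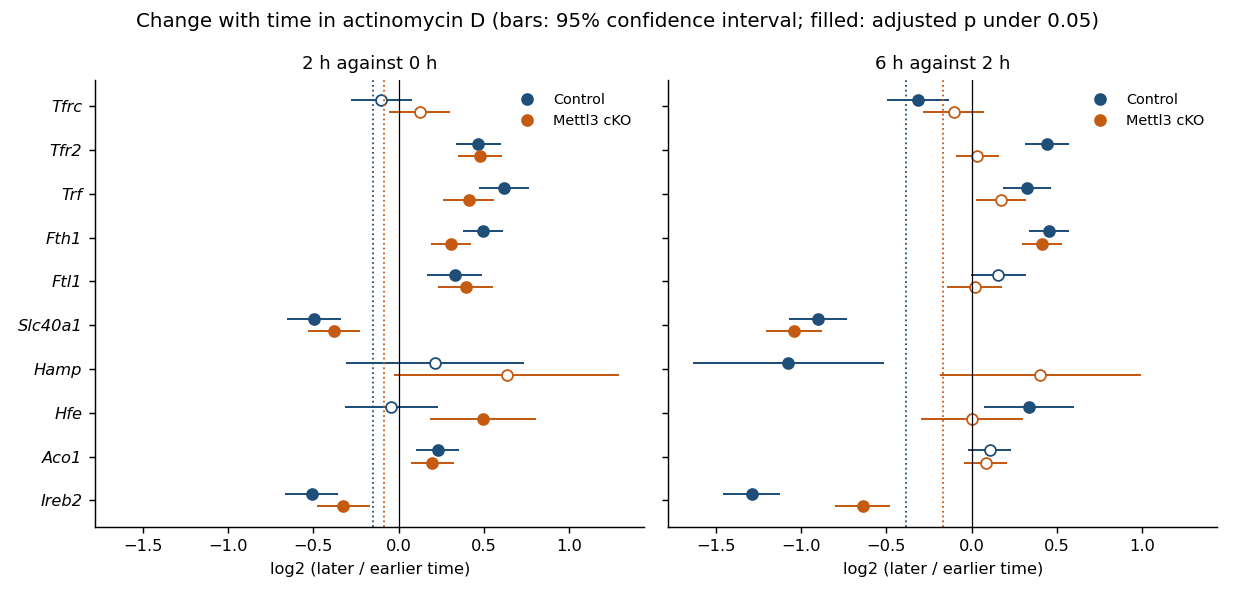
Log2 change of each iron gene (rows) from 0 to 2 h (left) and from 2 to 6 h (right) in Control (blue) and Mettl3 cKO (orange); points are edgeR estimates, bars 95% confidence intervals, filled points have an adjusted p under 0.05, and dotted lines are the medians of all genes. Slc40a1 and Ireb2 lie left of 0 in all 4 changes, and the widest bars are those of Hamp.

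The carriers, ferritins and Aco1 gained share early. From 0 to 2 h Trf rose by 0.62 on the log2 scale in Control (adjusted p = 1.09e-07, SE 0.0701) and 0.41 in Mettl3 cKO (adjusted p = 8.41e-05, SE 0.0727). Fth1 rose by 0.49 and 0.31, Ftl1 by 0.33 and 0.39, and Tfr2 by 0.47 and 0.48, all past the threshold with every library left out in turn. Aco1 rose by 0.23 and 0.20, and the call was lost in Control without Control 0 h replicate 2 (0.17, adjusted p = 0.0624, range 7.02e-04 to 0.0624) and in Mettl3 cKO without its 0 h replicate 1 (0.11, adjusted p = 0.225) or 2 h replicate 1 (0.16, adjusted p = 0.116; range 0.0022 to 0.225). Hfe rose in Mettl3 cKO by 0.50 (adjusted p = 0.0107), but without 2 h replicate 1 by only 0.18 (adjusted p = 0.407) and without 0 h replicate 1 by 0.42 (adjusted p = 0.0849), in a range of 3.68e-04 to 0.407.

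Later, Fth1 went on rising in both genotypes, by 0.45 in Control and 0.41 in Mettl3 cKO (adjusted p = 3.21e-07 and 3.81e-06). Tfr2 rose by 0.44 in Control (adjusted p = 1.63e-06), while its change in Mettl3 cKO was 0.03 (95% interval -0.09 to 0.16) and passed the test with TMM (0.195, adjusted p = 0.00835, range over the other settings 0.00835 to 0.901). Trf rose by 0.32 in Control (adjusted p = 2.55e-04) and its value in Mettl3 cKO was 0.17 (adjusted p = 0.0564), or 0.34 and past the threshold with TMM (range of adjusted p over the other settings 3.04e-04 to 0.0698). Ftl1 and Aco1 were not called in either genotype (Control 0.16 and 0.10, Mettl3 cKO 0.02 and 0.08). However, Ftl1 in Control was called in 4 of the 5 other settings. One was the fit without the filter on low counts (0.16, adjusted p = 0.00185). With TMM both rose in Control (Ftl1 0.49, adjusted p = 1.73e-06, and Aco1 0.44, adjusted p = 3.81e-07). They also rose with TMM in Mettl3 cKO (Ftl1 0.18, adjusted p = 0.0456, and Aco1 0.24, adjusted p = 0.00139). Hfe rose by 0.33 in Control (adjusted p = 0.0287), a call lost without Control 2 h replicate 1 (0.37, adjusted p = 0.0714), Control 2 h replicate 2 (0.30, adjusted p = 0.131) or Control 6 h replicate 1 (0.22, adjusted p = 0.207; range 0.00878 to 0.207).

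The members that fell were the exporter, IRP2 and, in Control, hepcidin and Tfrc. Slc40a1 fell from 0 to 2 h by 0.50 on the log2 scale in Control and 0.38 in Mettl3 cKO, and from 2 to 6 h by 0.90 and 1.04 (adjusted p = 1.94e-09 and 8.79e-10). Ireb2 fell by 0.51 and 0.33, and then by 1.29 and 0.64 (adjusted p = 6.66e-12 and 7.89e-07). Hamp was level within its error from 0 to 2 h in Control (log2 0.21, 95% interval -0.31 to 0.73) and then fell by 1.08 (adjusted p = 0.00154, SE 0.269); DESeq2's Wald test put this fall at 0.69 (adjusted p = 0.0973, range over the other settings 2.62e-04 to 0.0973). In Mettl3 cKO the changes of Hamp were 0.63 and 0.40, neither past the threshold (adjusted p = 0.119 and 0.276). Tfrc fell in Control from 2 to 6 h by 0.32 (adjusted p = 0.00333); without Control 6 h replicate 2 it fell by 0.13 (adjusted p = 0.132), without Control 2 h replicate 1 by 0.25 (adjusted p = 0.0584; range 2.01e-07 to 0.132), and with TMM the change was 0.02.

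The third question was whether the course over time differed between genotypes, which is how the study reads mRNA stability. From 0 to 2 h, no member passed edgeR's test of the difference. Among all genes, 12.5% had a higher change in Mettl3 cKO than in Control and 1.29% a lower one, whether the gene fell or rose. DESeq2 also called 0, and 2 members had an unadjusted p under 0.05 by edgeR. These were Hfe (0.27 log2 per h, 95% interval 0.06 to 0.48, adjusted p = 0.0832) and Fth1 (-0.09 log2 per h, 95% interval -0.18 to -0.01, adjusted p = 0.142). With TMM the share of calls that were higher went from 90.7% to 76.3%.

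Over 0 to 6 h, with a straight line through log2 level and time, 2 members had a higher slope in Mettl3 cKO and 0 a lower one, against 24.3% and 2.57% of all genes. The share of higher calls went from 90.4% to 59.9% with TMM. TMM called 2 members higher and 2 lower, against 2359 and 1578 of all 14488 genes. On column totals the median slope difference of the members was -0.01 log2 per h against 0.04 over all genes. The 2 lower members with TMM were Tfr2 (-0.11 log2 per h, adjusted p = 0.0150) and Fth1 (-0.0765, adjusted p = 0.0360). On column totals their values were -0.0722 and -0.0341, and neither was called. DESeq2 size factors also called both lower, and Trf as well (-0.10, adjusted p = 0.0412). Ireb2 declined by 0.30 log2 per h in Control and 0.16 log2 per h in Mettl3 cKO, a difference of 0.14 (adjusted p = 2.99e-04, SE 0.0216). As a share of mRNA its half-life was 3.30 h in Control (95% interval 2.96 to 3.73 h) and 6.23 h in Mettl3 cKO (5.16 to 7.86 h). The call held under every alternative and with each library left out, with a difference of 0.10 to 0.16, but from 0 to 2 h alone the difference was 0.09 log2 per h (95% interval -0.02 to 0.20, adjusted p = 0.326).

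Hamp had a slope of -0.16 log2 per h in Control and 0.16 log2 per h in Mettl3 cKO, a difference of 0.32 (SE 0.0742, 95% interval 0.16 to 0.48, adjusted p = 0.00619). This too held under every alternative and with each library left out, at 0.27 to 0.37, and it rested on the 6 h libraries, since from 0 to 2 h the difference was 0.21 log2 per h (95% interval -0.21 to 0.63, adjusted p = 0.621). Slc40a1, as a share of mRNA, had half-lives of 4.31 h in Control (95% interval 3.77 to 5.02 h) and 4.16 h in Mettl3 cKO (3.65 to 4.83 h). Its slope difference was -0.01 log2 per h (95% interval -0.05 to 0.04), and from 0 to 2 h it was 0.06 log2 per h (95% interval -0.05 to 0.17). Both half-lives are on column totals. Over the other settings the slope difference ran from -0.055 to -0.0080 log2 per h and was called in 0. The Control fall from 2 to 6 h ran from 0.90 to 0.51 there. For Tfrc the slope difference was 0.07 log2 per h (95% interval 0.01 to 0.13, adjusted p = 0.0696), and from 0 to 2 h it was 0.11 (95% interval -0.01 to 0.24). The Tfrc slope difference passed the test without Control 6 h replicate 1 (0.10, adjusted p = 0.00717, range with a library left out 0.00717 to 0.269) and without the filter on low counts (adjusted p = 0.0369), and it was 0.04 at the lowest with a library left out and 0.02 with DESeq2 size factors (range of adjusted p over the other settings 0.0369 to 0.566). The part of the differences between the 6 h libraries in these slopes was not tested.

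A wider set of 89 iron genes in 4 lists was then described, of which 87 were in the table and 82 passed the filter; Flvcr1 and Flvcr2 were not analysed here. At 0 h, 26 were higher and 21 lower in Mettl3 cKO, with a median log2 difference of 0.08, so the shares lay near those of all genes, 31.9% and 22.5%. At 2 h, 32 were higher and 20 lower, against 37.8% and 21.3% of all genes. With TMM these counts were 25 and 25 at 0 h and 27 and 26 at 2 h. Of all 14488 genes, TMM called 4286 higher and 3691 lower at 0 h, and 4680 and 4139 at 2 h.

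Among the 22 tested genes of hepcidin regulation, 9 were higher and 3 lower at 0 h, against 31.9% and 22.5% of all genes. With TMM the counts were 9 and 5, against 4286 and 3691 of all 14488 genes. Tmprss6, the liver protease that cuts hemojuvelin and so holds hepcidin down, was 2.90-fold lower (log2 -1.54, SE 0.0705, adjusted p = 4.33e-14), at 85.4 and 83.2 CPM in Control and 26.8 and 31.3 CPM in Mettl3 cKO. Fgl1, a hepatokine that binds BMP6 and lowers hepcidin, was also lower (log2 -0.66, adjusted p = 5.77e-09). Smad7, which inhibits BMP signalling to hepcidin, was higher at 60.0 and 64.1 CPM against 33.2 and 29.7 CPM (log2 0.98, SE 0.102, adjusted p = 3.53e-08). Hemojuvelin, the BMP co-receptor listed as Hfe2, had only 63 reads over the 12 libraries.

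**Figure D4:**
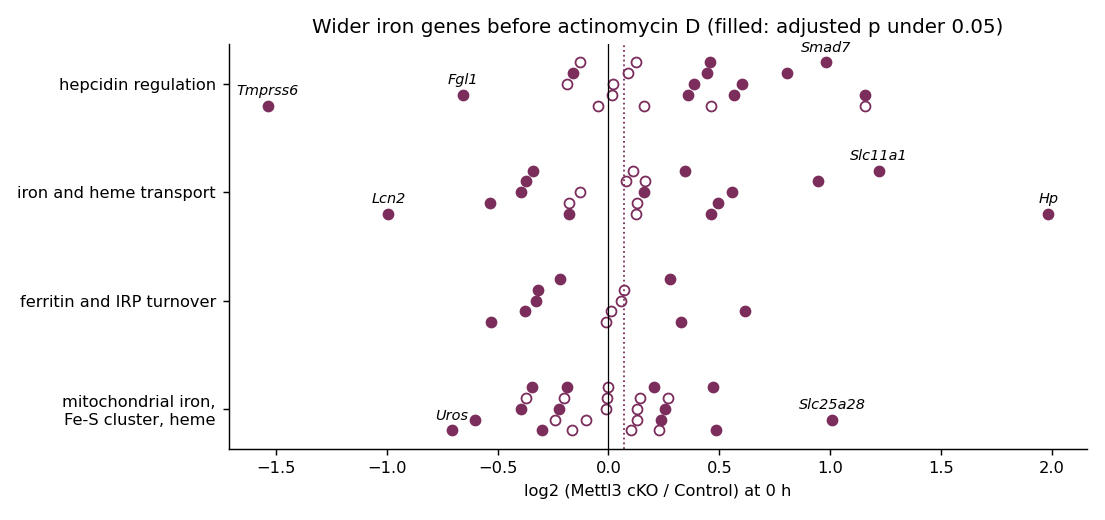
Log2 ratio of Mettl3 cKO to Control at 0 h (horizontal axis) for the 82 tested genes of 4 wider iron lists (rows, spread vertically for visibility); filled points have an adjusted p under 0.05, and the dotted line is the median of all genes, 0.07. The labelled genes run from Tmprss6 at -1.54 to Hp at 1.98.

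Of the 21 tested genes of iron and heme transport, 8 were higher and 6 lower at 0 h, against 31.9% and 22.5% of all genes. Hp, haptoglobin, which binds free hemoglobin in plasma, had the largest difference of the 4 lists, at 820.0 and 738.5 CPM in Control against 2946 and 3217 CPM in Mettl3 cKO (log2 1.98, adjusted p = 8.48e-18). Slc11a1, an iron and manganese transporter of phagosomes, was higher (log2 1.22, adjusted p = 4.34e-11), as were the macrophage markers given above, whose part was not tested. Lcn2, a secreted protein that binds bacterial siderophores, was lower at 785.7 and 823.1 CPM against 1724 and 1476 CPM (log2 -0.99, adjusted p = 1.69e-12).

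Of the 27 genes of mitochondrial iron, iron-sulfur clusters and heme synthesis, 6 were higher and 7 lower at 0 h, and of the 12 tested genes of ferritin and IRP turnover 3 were higher and 5 lower. The shares over all genes were 31.9% higher and 22.5% lower. Slc25a28, mitoferrin 2, which carries iron into mitochondria, was higher (log2 1.01, adjusted p = 2.27e-10). Uros, an enzyme of heme synthesis, was lower at 0 h (log2 -0.71, adjusted p = 9.9e-05).

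Between 0 and 2 h, 6 of the 82 genes had a higher change in Mettl3 cKO than in Control and 0 a lower one, against 12.5% and 1.29% of all genes. The counts were 10 and 0 in a fit to the 0 and 2 h libraries alone, 5 and 2 with TMM, and 6 and 2 with DESeq2 size factors. Over all 14488 genes, TMM called 1513 higher and 470 lower. In both directions together, 2190 genes were called without the 6 h libraries and 1947 with DESeq2 size factors. The BMP pathway members Smad1 (0.46 log2 per h, adjusted p = 2.35e-05), Acvr2a (0.43, adjusted p = 2.67e-06) and Smad7 (0.42, adjusted p = 0.00237) were among the 6 genes called higher on column totals. Fbxl5, the subunit of the ubiquitin ligase that senses iron and marks IRP2 for degradation, went from 96.6 and 112.1 to 64.2 and 58.3 CPM in Control and from 82.7 and 85.0 to 83.4 and 84.6 CPM in Mettl3 cKO (0.39 log2 per h, SE 0.0551, adjusted p = 1.61e-05). These differences of the genes named from the wider lists kept their direction and their call with TMM, with DESeq2 size factors and without the 6 h libraries.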

How the data were processed

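RNA sequencing of primary mouse hepatocytes was analysed from a table of read counts, deposited by the authors as whole numbers per gene without normalization. Per the labels and the study's methods, poly(A) libraries without strand information were sequenced, and STAR 2.5.3a (mm10) and featureCounts 2.0.1 on Gencode exons, unique alignments only, were used by the authors. Which Gencode release they counted on is not stated; exon lengths, positions and UTRs came from Gencode M21. No column lacked a sample.

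CPM used column totals (median 18877363 reads). Genes passing filterByExpr (minimum count 10, minimum total 15), 14488 of 48440, were fitted over all 12 libraries with edgeR 4.0.16 (quasi-likelihood test, R 4.3.3), with column totals as library sizes, Benjamini-Hochberg adjustment over all genes and a threshold of 0.05. Intervals are at 95%. The fit was tested on simulated data. Alternatives were TMM library sizes, DESeq2 1.42.0 size factors, DESeq2's Wald test, no filter, a replicate block, the 0 and 2 h libraries alone, and each library left out; a group then left with 1 library is assumed to vary like the others. Replicates were not duplicates (chi-square per gene 2.14 to 9.16).

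All 10 members are described. From the wider lists, up to 4 genes in each direction with the largest called difference and a mean of at least 10 CPM were named for 0 h, 2 h and the 0 to 2 h interaction; Mettl3, Xist, Ddx3y and Hamp2 are check genes, and Eno1b and hemojuvelin were named after their values were seen. A result that this rule would name is not reported here. Members and lists were chosen with earlier results of these data known.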

Additional observations from a re-analysis of the deposited data

Results flagged for a closer look

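For 2 of the iron genes the test of the difference itself found a time course that differed between genotypes over 0 to 6 h. That is 2 of 10 genes, both higher, where 24.3% of all genes tested were higher and 2.57% lower, so the count does not set the iron genes apart. The slope of Ireb2 was higher in Mettl3 cKO by 0.14 log2 per h, and that of Hamp by 0.32 log2 per h. Both are differences in the share of mRNA and both rest on 6 h libraries that stand apart by Xist, Ddx3y and Eno1b. Hamp had 20 to 56 reads in a library. With TMM, Tfr2 and Fth1 also passed the test, with lower slopes in Mettl3 cKO.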

How the results depend on the processing

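Of 90 values of the members (10 genes in 9 comparisons), 84 kept direction and call without the filter on low counts and 70 with TMM library sizes. All 50 that could be fitted without the 6 h libraries did so. The cause of each change was not tested. The replicate numbers did not pair the samples (correlations of deviations from -0.218 to 0.081); with a replicate block 89 of the 90 kept their call, Slc40a1 at 0 h lost it (adjusted p = 0.0643), and 7697 genes were called at 0 h against 7888 without it.

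Members called from 2 to 6 h in Mettl3 cKO went from 3 to 7 with TMM, 7 with DESeq2 size factors and 6 with DESeq2's Wald test, while the genes called overall were 5968, 6103, 6089 and 5210 of 14488. For the slopes over 0 to 6 h they went from 2 to 4, 5 and 6, and the genes called overall from 3888 to 3937, 4146 and 4314. For the 0 to 2 h interaction they went from 0 to 2 without the filter (2003 and 2102 genes overall) and ran from 0 to 2 as each library was left out.

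Directions turned with TMM, DESeq2 size factors and the Wald test, in that order, for Ireb2 between genotypes at 2 h (-0.0341, -0.0416, -0.0415), Slc40a1 between genotypes at 6 h (-0.14, -0.20, -0.20), Tfrc from 0 to 2 h in Control (0.0676, 0.0730, 0.0729), from 2 to 6 h in Control (0.0167, 0.0700, 0.0696) and in Mettl3 cKO (0.0559, 0.0561, 0.0561), Hfe from 0 to 2 h in Control (0.13, 0.13, 0.13), Tfr2 in the 0 to 2 h interaction (-0.0331, -0.0191, -0.0191) and Hfe in the slope difference (-0.0254, -0.0310, -0.0310). Ftl1 in the 0 to 2 h interaction turned with TMM only (-0.0046).

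As each library was left out, values near 0 changed sign within these ranges. From 0 to 2 h in Control, Hfe ran from -0.12 to 0.0337. From 2 to 6 h in Mettl3 cKO, Ftl1 ran from -0.0333 to 0.0644 and Hfe from -0.26 to 0.32. Between genotypes at 6 h, Tfrc ran from -0.22 to 0.18. In the 0 to 2 h interaction, Aco1 ran from -0.0584 to 0.0272, Ftl1 from -0.0361 to 0.11 and Tfr2 from -0.0282 to 0.0391. In the slope difference, Aco1 ran from -0.0228 to 0.0030, Ftl1 from -0.0434 to 0.0020, Hfe from -0.0080 to 0.0399 and Slc40a1 from -0.0252 to 0.0127. The depth behind Hamp was 20 to 56 reads in a library.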
